A study of Mus musculus with 4 samples.

Results

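The genes described here control entry into the cell cycle in G1: the D-type cyclins Ccnd1, Ccnd2 and Ccnd3, cyclin E1 (Ccne1), the cyclin-dependent kinase inhibitors Cdkn1a, Cdkn1b, Cdkn2c and Cdkn2d, and the transcription factor genes Myc and Mycn. They were chosen by name, as a list of 10 genes, with earlier results of these data known. All 10 were among the 23420 genes of each count table. The filter on low counts was passed by 9 of them, against 14256 genes in all, and Cdkn2c was the member that did not pass. The samples were embryonic stem cells of the mouse line E14, kept without feeder cells on gelatin with leukemia inhibitory factor (LIF). Of the 4 RNA sequencing libraries, 2 came from cells at 0 h (control). The other 2 came from cells given 1 µM ATRA (all-trans retinoic acid) for 24 h, which binds and activates the nuclear receptors RARA, RARB and RARG. Treatment and 24 h of culture therefore varied together. No label says whether the 0 h cells received the dimethyl sulfoxide vehicle or whether the replicates were separate cultures, so the spread behind the p-values may be a technical one.

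D-type cyclins bind CDK4 and CDK6, and cyclin E binds CDK2. These kinases phosphorylate the retinoblastoma proteins, which releases E2F factors and commits the cell to S phase. Inhibitors of the CIP/KIP family (p21 from Cdkn1a, p27 from Cdkn1b) act mainly on CDK2 complexes, and those of the INK4 family (p18 from Cdkn2c, p19 from Cdkn2d) on CDK4 and CDK6. Mouse embryonic stem cells are known for a short G1 phase and for high MYC activity, and retinoic acid drives them to differentiate.

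After 24 h of ATRA, cyclin D2 (Ccnd2) rose 5.34-fold and Mycn fell 6.48-fold, and these 2 of the 9 tested members passed the threshold (quasi-likelihood test of edgeR, Benjamini-Hochberg adjusted over all genes, adjusted p under 0.05, n = 2 against 2). Over all genes tested, 1.13% passed, 0.723% higher and 0.407% lower with ATRA. With a correction for GC content, Ccnd2 again rose, 4.21-fold, cyclin D1 (Ccnd1) fell 1.71-fold, and Mycn was 2.98-fold lower with an adjusted p of 0.0644. There the background was far higher, at 16.2% of all genes, 8.52% higher and 7.67% lower. Cyclin E1, the tested CDK inhibitors and Myc did not pass in either fit.

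The tests of the members are given with and without the correction because fold changes in these libraries followed transcript GC content. Across genes, which are not independent replicates, Spearman's rho between log2 fold change and GC content was −0.75 before the correction. The ATRA replicates also differed from each other along GC content. Replicate 2 exceeded replicate 1 by a median log2 ratio of 0.85 in the GC-poorest decile of genes, and the ratio was −1.31 in the GC-richest. Transcript GC content of the members ran from 43.1% in Cdkn1b to 58.4% in Ccnd3. The correction removes any difference that follows GC content, whether it arose in the libraries or in the cells, and these cannot be told apart. Library depth, as counts in genes, ran from 11086233 (ATRA replicate 2) to 31005634 (control replicate 1), and both controls were deeper than both ATRA libraries. Levels are given as CPM, counts scaled to the TMM-adjusted library size. A count of 3 stood for 0.0968 to 0.271 CPM, and such floors cover counting error only.

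**Figure D1:**
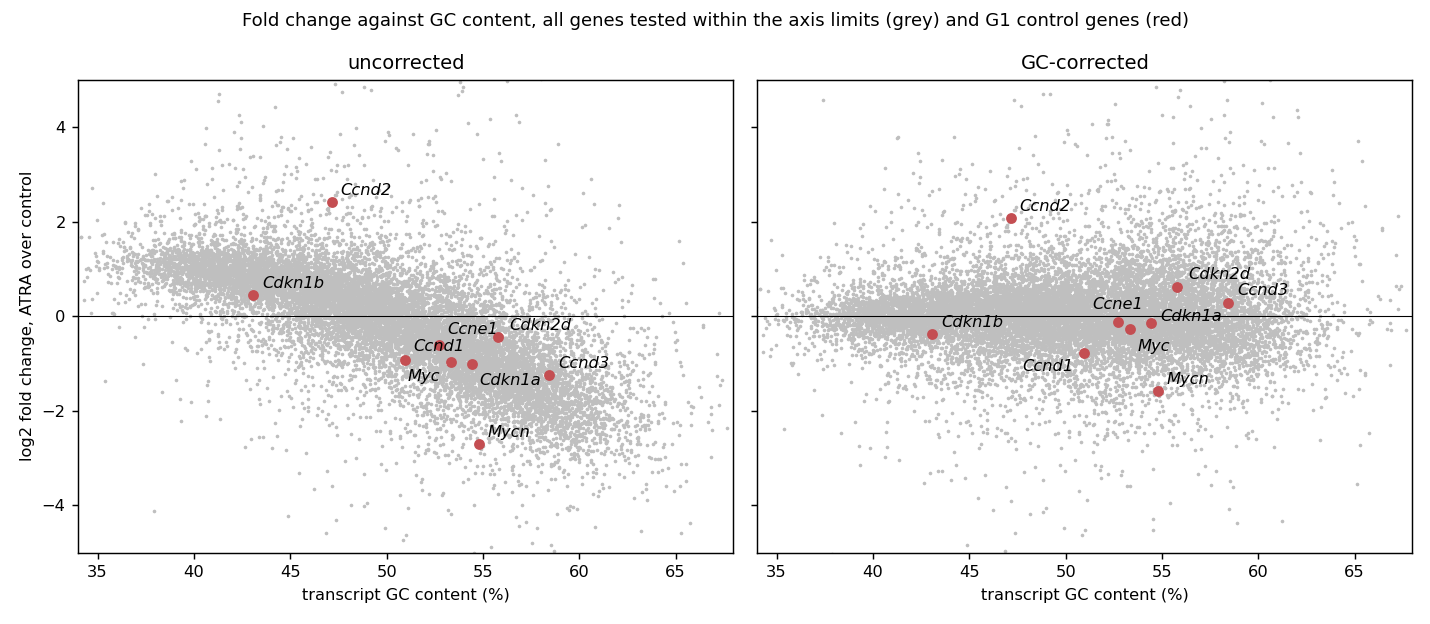
Log2 fold change (y axis, ATRA over control) against transcript GC content in percent (x axis), for all tested genes within the axis limits in grey and the 9 tested G1 control genes in red, uncorrected on the left and GC-corrected on the right. Ccnd2, at 2.42 and 2.07, and Mycn, at −2.70 and −1.58, lie at the edges of the grey cloud in both panels, while Ccnd3 moves from −1.25 to 0.29.

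Among the D-type cyclins, Ccnd2 (ENSMUSG00000000184, chr6:127125162-127152193, minus strand, GENCODE M21 on GRCm38) was the lowest in the controls. It had 1424 and 1036 counts in control replicates 1 and 2, and 3329 and 2420 in ATRA replicates 1 and 2. In CPM these were 44.6 and 46.1 in the controls and 235 and 250 with ATRA. The groups lay far apart, and the replicates of each group lay close together. The log2 fold change of Ccnd2 was 2.42 (SE 0.26, adjusted p = 0.0329, edgeR), against a median of 0.36 for genes of its GC decile. With GC correction, Ccnd2 had 50.7, 51.4, 229 and 201 CPM, and the log2 fold change was 2.07 (SE 0.11, adjusted p = 0.00282). The rise of Ccnd2 kept its size when any library was left out, between 1.98 and 2.45, with and without GC correction. Its call was lost without either control library, with an edgeR adjusted p of 0.124 without control replicate 1 and 0.0573 without control replicate 2. In those fits the lone control is assumed to vary like the ATRA libraries. Over all alternatives the adjusted p of Ccnd2 ran from 1.16e-13 to 0.124. The antisense gene 9330179D12Rik shares 368 exonic bases with Ccnd2, and it had 1 count in control replicate 1 and 0 in the other libraries.

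Ccnd1 (ENSMUSG00000070348, chr7:144929931-144939925, minus strand), the D-type cyclin with the highest level in the controls, had 7791 and 4924 counts in the controls and 1704 and 1186 with ATRA. Its levels were 244 and 219 CPM in the controls and 120 and 122 CPM with ATRA. Each ATRA library was thus below each control, and the ATRA libraries were nearly equal. Without GC correction the log2 fold change of Ccnd1 was −0.93 (SE 0.26, adjusted p = 0.0734, edgeR), which missed the threshold. With GC correction it had 232, 206, 119 and 138 CPM, and Ccnd1 fell by 0.78 on the log2 scale (SE 0.12, adjusted p = 0.0230). That call was lost without either control library, at adjusted p-values of 0.221 without control replicate 1 and 0.159 without control replicate 2. Over all alternatives the adjusted p ran from 1.10e-06 to 0.568, and the log2 fold change was negative in each. Ccnd1 shares 1100 exonic bases with Oraov1 on the opposite strand. Oraov1 had 18.02 and 14.7 CPM in the controls and 14.4 and 7.74 with ATRA. Without a known strand setting, it cannot be said how reads over the shared bases were counted.

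Ccnd3 (ENSMUSG00000034165, chr17:47505051-47599691, plus strand) had the highest GC content of the members. Its counts were 3873 and 2404 in the controls and 955 and 276 with ATRA, or 121, 107, 67.5 and 28.5 CPM. Both ATRA libraries were lower than the controls, and they differed from each other more than the controls did. The log2 fold change of Ccnd3 was −1.25 (SE 0.44, adjusted p = 0.0968, edgeR), in a GC decile whose median was −1.72. After GC correction it turned direction, with 62.9 and 64.9 CPM in the controls, 76.9 and 79.1 with ATRA, and a log2 fold change of 0.29 (SE 0.10, adjusted p = 0.109). Ccnd3 thus passed in neither fit, and its direction depends on the correction. It shares 361 exonic bases with Bysl on the opposite strand, which had 156 and 152 CPM in the controls and 90.1 and 46.0 with ATRA.

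Set against each other per transcript length, the D-type cyclins changed their order on the uncorrected scale. After GC correction, those next to each other in level overlapped with ATRA, so no new order was clear. Of the summed uncorrected CPM per kilobase of the 3 genes, Ccnd2 made up 5.43% and 6.25% in the controls and 36.7% and 46.1% with ATRA. Ccnd1 made up 50.3% in each control library, and 31.8% and 38.2% with ATRA. Ccnd3 went from 44.3% and 43.5% to 31.5% and 15.7%. After GC correction the Ccnd2 share was 8.03%, 8.64%, 34.7% and 30.0%, that of Ccnd1 was 62.1%, 58.7%, 30.4% and 34.7%, and that of Ccnd3 was 29.8%, 32.7%, 34.9% and 35.3%. On both scales the Ccnd2 share was higher in each ATRA library and the Ccnd1 share lower. The Ccnd3 share was lower with ATRA uncorrected and higher corrected. The summed level of the 3 genes was 123 ± 9.33 CPM per kilobase in the controls and 93.5 ± 11.1 with ATRA (SD, n = 2 each). After GC correction it was 96.9 ± 4.09 and 105 ± 1.24. An exact permutation test of 2 against 2 libraries cannot give a two-sided p below 0.333, so these shares and sums carry no test.

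**Figure D2:**
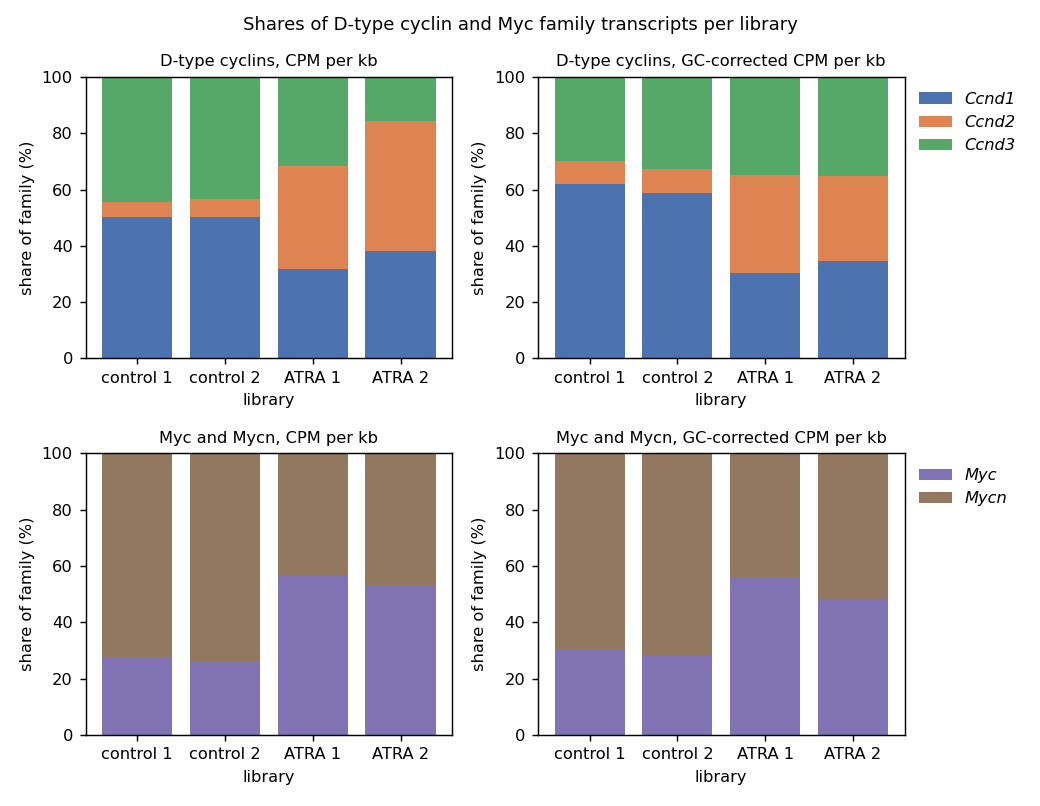
Share in percent (y axis) of each gene in the summed CPM per kilobase of its family, for the 4 libraries (x axis), with the D-type cyclins above and Myc with Mycn below, uncorrected on the left and GC-corrected on the right. Uncorrected, the Ccnd2 part is 5.43% and 6.25% in the controls and 36.7% and 46.1% with ATRA, and the Mycn part is 72.3% and 73.9% against 43.3% and 46.6%.

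Ccne1 (ENSMUSG00000002068, chr7:38097984-38107534, minus strand), which encodes the CDK2 partner cyclin E1, was the most abundant member per length in both groups. It had 9871 and 7326 counts in the controls and 3261 and 1812 with ATRA, or 309, 326, 230 and 187 CPM. Both ATRA libraries were lower, by a log2 fold change of −0.61 (SE 0.27, adjusted p = 0.134, edgeR), close to the median of −0.55 in its GC decile. Once corrected for GC content, the libraries overlapped, at 259, 275, 230 and 263 CPM, with a log2 fold change of −0.11 (SE 0.11, adjusted p = 0.469).

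Of the CIP/KIP inhibitors, Cdkn1a (ENSMUSG00000023067, chr17:29090976-29100727, plus strand), the p53 target that encodes p21, had 2315 and 1489 counts in the controls and 613 and 252 with ATRA. Its levels were 72.6 and 66.3 CPM against 43.3 and 26.0. The ATRA libraries were lower, with a log2 fold change of −1.0 (SE 0.34, adjusted p = 0.0917, edgeR), near the median of −0.90 in its GC decile. GC correction brought the groups near each other, at 52.0 and 49.4 CPM against 44.6 and 47.1, and the log2 fold change was −0.15 (SE 0.12, adjusted p = 0.399).

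Cdkn1b (ENSMUSG00000003031, chr6:134920401-134925513, plus strand), which encodes p27, had the lowest GC content of the members. It had 782 and 546 counts in the controls and 352 and 405 with ATRA, or 24.5, 24.3, 24.9 and 41.8 CPM. Only ATRA replicate 2 stood clearly above the controls. The log2 fold change was 0.45 (SE 0.35, adjusted p = 0.348, edgeR), below the median of 0.82 in its GC decile. After GC correction both ATRA libraries were lower, at 23.8 and 25.5 CPM against 32.2 and 31.6, with a log2 fold change of −0.37 (SE 0.14, adjusted p = 0.113). Its direction, like that of Ccnd3, depends on the correction.

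Of the INK4 members, Cdkn2d (ENSMUSG00000096472, chr9:21288410-21291407, minus strand), which encodes p19, had 272 and 167 counts in the controls and 115 and 33 with ATRA, or 8.53, 7.44, 8.13 and 3.40 CPM. The groups overlapped, and the log2 fold change was −0.45 (SE 0.47, adjusted p = 0.473, edgeR). After GC correction both ATRA libraries were higher, at 8.62 and 7.43 CPM against 5.40 and 5.06, with a log2 fold change of 0.63 (SE 0.22, adjusted p = 0.0978). Cdkn2c (ENSMUSG00000028551, chr4:109660876-109667189, minus strand), which encodes p18, had 16 and 4 counts in the controls and 12 and 5 with ATRA. It did not pass the count filter, so the fits with that filter on all 4 libraries did not test it. With no count filter it was tested and not called. At 0.178 to 0.848 CPM its levels were low, so a difference would be hard to detect at this depth.

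**Figure D3:**
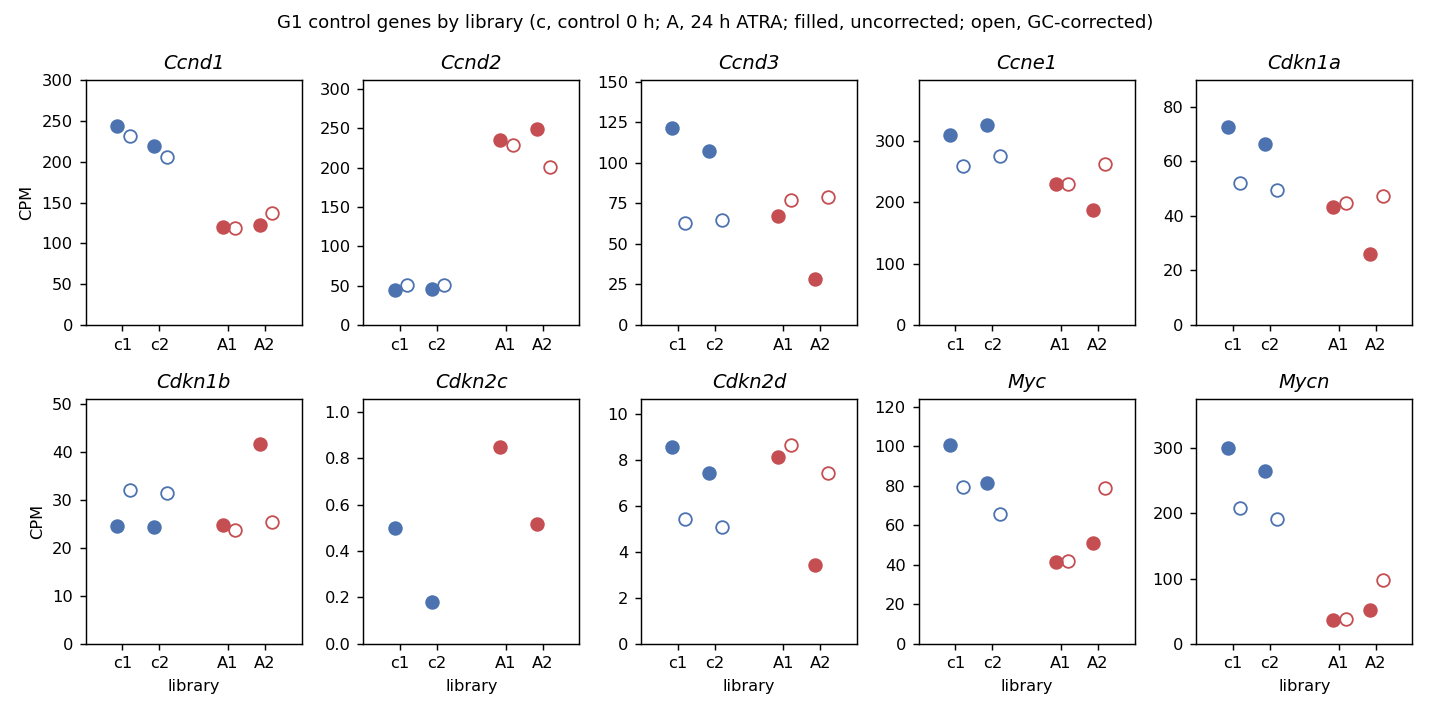
CPM (y axis, from 0, a scale of its own for each gene) of the 10 G1 control genes in each library (x axis: c1 and c2 controls, A1 and A2 ATRA), with filled points uncorrected and open points GC-corrected (none for Cdkn2c, which did not pass the count filter). The ATRA points of Ccnd2 (235 and 250 CPM) stand far above its controls (44.6 and 46.1) and those of Mycn (36.1 and 51.2) far below (300.3 and 264), while for Ccnd3 and Cdkn1b the open points put the groups in the opposite order from the filled ones, and for Cdkn2d they separate groups whose filled points overlap.

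Mycn (ENSMUSG00000037169, chr12:12936093-12941914, minus strand), which encodes the MYC family factor N-MYC, had the largest fall of the members without correction. The RefSeq promoter table (GRCm38.p6) gave 10 windows for 7 of the members, each of 300 bases with 250 before the start. Ccnd1, Ccnd2 and Myc were not searched. The Mycn window was the member window with matches to the E2F motif letters TTTGGCGC or TTTCGCGC, searched on both strands, and its part upstream of both annotated starts is shown for that reason (chr12:12941915-12942086, minus strand), with the matches in capitals.

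Mycn promoter: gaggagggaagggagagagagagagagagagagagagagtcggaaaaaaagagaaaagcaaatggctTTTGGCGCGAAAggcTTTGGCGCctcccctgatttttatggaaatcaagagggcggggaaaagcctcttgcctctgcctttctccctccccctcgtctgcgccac

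The 3 matches begin 183, 179 and 168 bases before the RefSeq start. The match at 179 is TTTCGCGC on the opposite strand and overlaps the first. Of all 32851 windows of this length, 0.514% held TTTGGCGC and 0.323% held TTTCGCGC. The E-box CACGTG was in 1 of the 10 member windows and in 7.15% of all windows, and the GC box GGGCGG in 8 of 10 and in 35.7%. The TATA box letters TATAAA (13.6% of all windows) and a DR5 retinoic acid response element (0.0974%) were in 0 of the 10 windows of those 7 members. A match is a description of the letters, not of binding.

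Mycn had 9580 and 5937 counts in the controls and 511 and 496 with ATRA. Its levels were 300.3 and 264 CPM in the controls and 36.1 and 51.2 CPM with ATRA. Mycn was thus among the highest members in the controls, and its groups were far apart. The fall of Mycn was −2.70 as a log2 fold change (SE 0.31, adjusted p = 0.0343, edgeR), beyond the median of −0.90 in its GC decile. After GC correction the controls were at 208 and 192 CPM and the ATRA libraries at 37.4 and 97.7. The ATRA libraries remained the lower ones but spread apart, with a log2 fold change of −1.58 (SE 0.43, adjusted p = 0.0644), so the correction ended the call and moved the fold from 6.48 to 2.98. The corrected log2 fold change depended on the ATRA library, at −1.03 with replicate 1 left out and −2.42 with replicate 2 left out. Uncorrected, Mycn passed with each library left out in turn, and over all alternatives its adjusted p ran from 1.87e-12 to 0.263.

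Myc (ENSMUSG00000022346, chr15:61985391-61990374, plus strand) had 3207 and 1831 counts in the controls and 586 and 496 with ATRA, or 101, 81.6, 41.4 and 51.2 CPM. The ATRA libraries were lower, with a log2 fold change of −0.98 that missed the threshold (SE 0.28, adjusted p = 0.0781, edgeR). The corrected libraries overlapped, at 79.5, 65.8, 41.8 and 79.0 CPM, and the log2 fold change was −0.27 (SE 0.31, adjusted p = 0.548). The ATRA libraries disagreed on this value: with ATRA replicate 1 left out it was 0.12, and with ATRA replicate 2 left out −0.80.

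The makeup of the pair changed as well. Mycn made up 72.3% and 73.9% of the summed CPM per kilobase of Myc and Mycn in the controls, and 43.3% and 46.6% with ATRA. After GC correction the Mycn share was 69.6% and 71.9% against 43.9% and 52.0%. On both scales the Mycn share of each ATRA library was below that of each control. The summed level went from 145 ± 15.2 CPM per kilobase to 36.1 ± 6.92 (SD, n = 2 each), and after GC correction from 106 ± 8.41 to 51.1 ± 27.2. These are bulk samples, in which fewer cells of a type and less RNA per cell cannot be told apart.

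**Figure D4:**
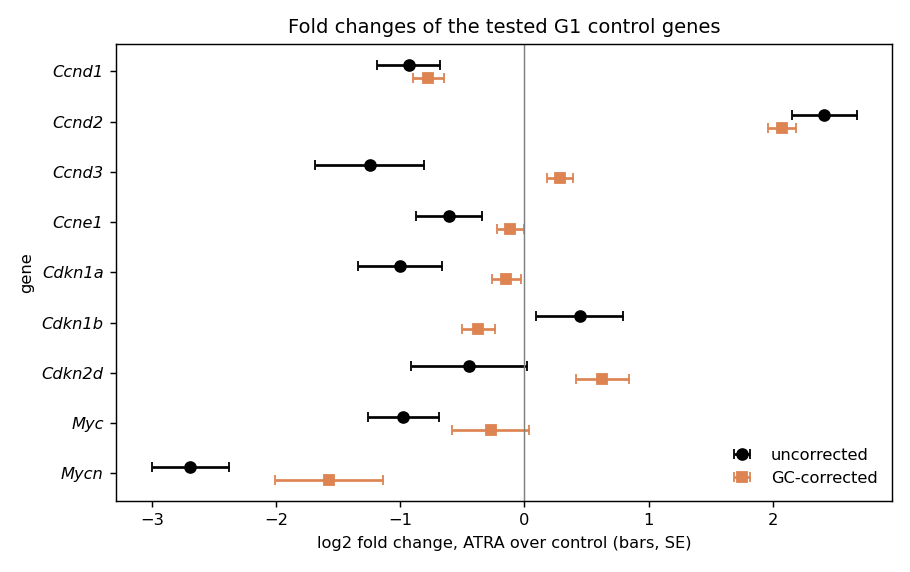
Log2 fold change of the 9 tested G1 control genes (x axis, ATRA over control; y axis, gene), uncorrected in black and GC-corrected in orange, with bars of 1 SE. Ccnd2 lies at 2.42 and 2.07 and Mycn at −2.70 and −1.58, and Ccnd3, Cdkn1b and Cdkn2d lie on opposite sides of 0 in the 2 fits.

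Ordered by uncorrected CPM per kilobase, the controls ran from Ccne1 (159 ± 5.98, SD, n = 2) through Mycn (106 ± 9.48), Ccnd1 (62.0 ± 4.70), Ccnd3 (54.1 ± 4.79), Myc (38.9 ± 5.74) and Cdkn1a (33.4 ± 2.12) to Ccnd2 (7.17 ± 0.17), Cdkn2d (5.61 ± 0.54), Cdkn1b (5.36 ± 0.03) and Cdkn2c (0.14 ± 0.09). The libraries of neighbours overlapped for Myc with Cdkn1a and for Cdkn2d with Cdkn1b. With ATRA, Ccne1 was again first (104 ± 15.4), and Ccnd2 came next (38.3 ± 1.60), above Ccnd1 (32.5 ± 0.35). Ccnd3 (22.7 ± 13.1), Myc (19.8 ± 2.94), Cdkn1a (16.7 ± 5.89) and Mycn (16.3 ± 3.98) followed, each overlapping its neighbour. Cdkn1b (7.32 ± 2.62) overlapped Cdkn2d (4.05 ± 2.35), and Cdkn2c was last (0.28 ± 0.10). On this scale Ccnd2 was seventh in the controls and Mycn came just below Ccne1. The order with ATRA depends on the correction. On GC-corrected CPM per kilobase, Ccne1 was again first (123 ± 11.5), and Ccnd3 (36.9 ± 0.73), Ccnd1 (34.2 ± 3.61) and Ccnd2 (33.96 ± 3.10) followed with overlapping libraries. Myc (25.8 ± 11.2), Mycn (25.3 ± 15.9) and Cdkn1a (22.04 ± 0.87) overlapped their neighbours as well. In the corrected controls Mycn was next to Ccne1 (74.8 ± 4.24 against 134 ± 5.88) and Ccnd2 was seventh (8.07 ± 0.08), with no overlap on either side.

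Counted over the list, the libraries of the groups did not overlap for 8 of the 9 tested members, where 81.4% of all genes did not overlap. Ccnd2 and Cdkn1b were the higher ones and 6 members were lower, against 40.0% and 41.5% of all genes. After GC correction 7 of 9 did not overlap, against 70.3% of all genes. Ccnd2, Ccnd3 and Cdkn2d were then higher (35.5% of all genes) and Ccnd1, Cdkn1a, Cdkn1b and Mycn lower (34.8%). The median log2 fold change of the 9 members was −0.93, against −0.02 over all genes, and −0.15 after GC correction, against 0.01.

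The rest of the pathway was read from 6 gene lists, also chosen with earlier results of these data known. Without GC correction 0 of their 90 tested members passed (edgeR), and those with an unadjusted p under 0.05 numbered 41, against 5941 of all 14256 genes. DESeq2 called 29 of them, against 28.5% of all genes. With GC correction 23 passed, where 16.2% of all genes did (8.52% higher and 7.67% lower). The list genes named below as passing are those that the naming rule does not cover, and they were chosen after their values were seen.

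In the list of other cyclins, kinases and inhibitors of the G1 to S step, 14 members were tested and 2 passed after GC correction (14.3%), a share near the 16.2% of all genes. Cyclin A1 (Ccna1), known from the germ line, rose by 2.31 on the log2 scale from very low levels (0.376 and 0.445 CPM in the controls, 1.98 and 1.03 with ATRA, uncorrected). The kinase gene Cdk6, a partner of the D-type cyclins, fell by 1.09 (SE 0.18, adjusted p = 0.0241, edgeR). Its corrected levels were 31.9 and 28.0 CPM in the controls and 15.3 and 12.8 with ATRA. Uncorrected, the log2 fold change of Cdk6 was −0.51 (adjusted p = 0.223, edgeR), against a median of 0.60 in its GC decile. Cdk4 did not pass, at 453, 463, 329 and 119 CPM uncorrected, 358, 373, 332 and 183 CPM corrected and a corrected log2 fold change of −0.50. Nor did cyclin A2 (Ccna2), with log2 fold changes of 0.85 and 0.35. Cdk3 and Mycl were not analysed here.

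Of the 15 Rb and E2F family genes, 2 rose after GC correction and 0 fell. These 13.3% are near the 16.2% of all genes. Rb1, which encodes the retinoblastoma protein, had 19.9 and 20.8 CPM in the controls and 44.5 and 75.6 with ATRA, with log2 fold changes of 1.56 uncorrected and 0.62 corrected (SE 0.12, adjusted p = 0.0344, edgeR). Corrected, it had 27.1 and 28.3 CPM against 42.6 and 42.5. E2f5, an E2F of the repressor class, had log2 fold changes of 1.10 and 0.68. E2f4, with the highest mean of the list over all 4 libraries, did not pass, with log2 fold changes of −1.67 and −0.59.

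Among 14 parts of ubiquitin ligases that turn over G1 regulators, 1 rose and 4 fell after GC correction, or 35.7% called against 16.2% of all genes. Cks1b, a cofactor that SKP2 needs to mark p27 for degradation, had 153 and 146 CPM in the controls and 68.9 and 34.1 with ATRA, and 159, 149, 67.5 and 32.7 CPM corrected. It fell by 1.62 on the log2 scale after correction and had a log2 fold change of −1.53 without it. Skp2 itself fell by 0.44 after correction and had a log2 fold change of 0.19 without it. Fzr1, which encodes the activator CDH1 of the anaphase-promoting complex, fell by 0.93, and Fbxo31 was the other one that fell. Cul1, the scaffold of the SCF ligases, rose by 0.46. Ddb1, with the highest mean of the list over all 4 libraries, did not pass, with log2 fold changes of −0.21 and 0.16.

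On the MYC side, 2 of 11 tested partners and antagonists fell after GC correction and 0 rose (18.2% called, near the 16.2% of all genes). Max, the dimer partner that MYC and N-MYC need to bind DNA, had 98.6 and 86.3 CPM in the controls and 54.6 and 37.7 with ATRA, with log2 fold changes of −1.0 and −1.04 (corrected SE 0.20, adjusted p = 0.0338, edgeR). The antagonist gene Mxd3 fell by 1.15 after correction. Mga did not pass, with log2 fold changes of 0.62 and −0.27.

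Of 18 MYC target genes for ribosome making and growth, 6 fell after GC correction and 0 rose, and 16 of the 18 had a negative corrected log2 fold change. Of all genes, 7.67% fell and 48.8% had a negative corrected value. The median over the list was −0.37, against 0.01 over all genes. Ppan, a factor of the large ribosomal subunit, had 163 and 121 CPM in the controls and 32.7 and 11.8 with ATRA (77.8, 70.7, 38.7 and 35.1 CPM corrected), and fell by 1.01 on the log2 scale after correction (SE 0.12, adjusted p = 0.0141, edgeR). Polr1b, a subunit of RNA polymerase I, fell by 0.73, and Nolc1, Cad, Bop1 and Fbl were the others. Without the correction the list's median was −0.36, and 7 of its 18 genes were higher with ATRA. Nucleolin (Ncl), with the highest mean over all 4 libraries, did not pass, with log2 fold changes of 0.58 and −0.26.

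Among 18 p53 target genes other than Cdkn1a, 4 rose and 2 fell after GC correction, against 8.52% and 7.67% of all genes. Phlda3 rose by 1.17, Sesn1 by 0.86, Plk2 by 0.60 and Perp by 0.60 on the log2 scale, while Aen fell by 0.62 and Sesn2 by 0.52. Phlda3 had a log2 fold change of −0.76 without the correction. Ccng1, with the highest mean over all 4 libraries, did not pass, with log2 fold changes of 1.22 and 0.23. With either control library left out of the corrected fit, 0 of the list genes were called by edgeR, with 21 (without control replicate 1) and 24 (without control replicate 2) at an unadjusted p under 0.05.

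**Figure D5:**
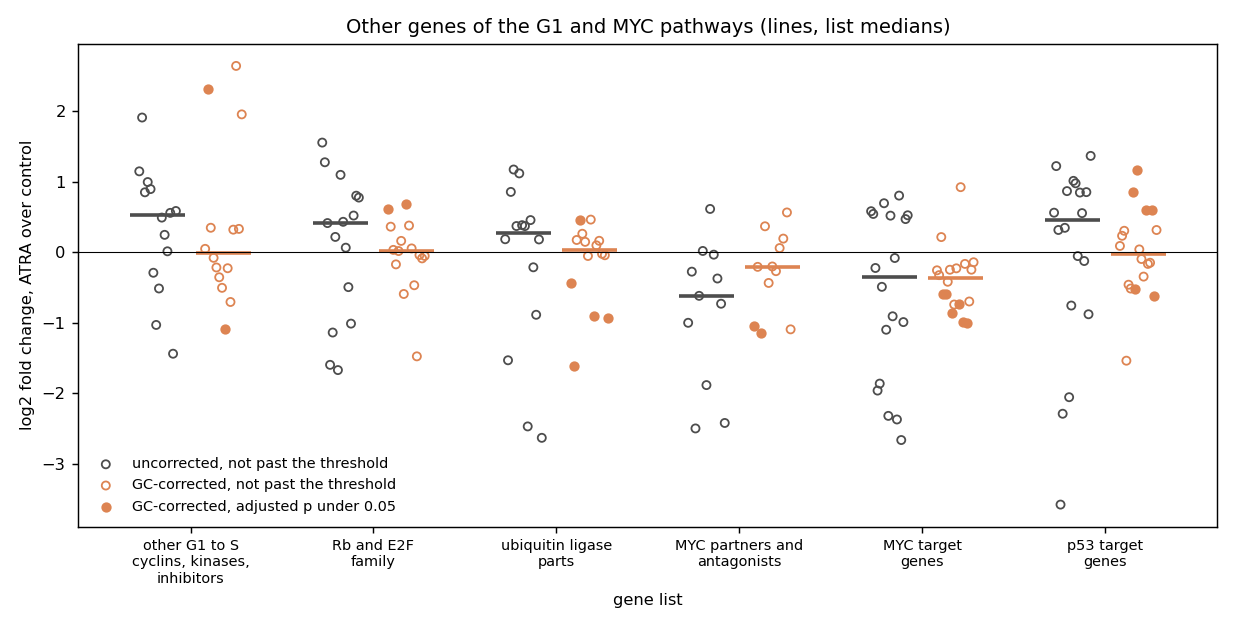
Log2 fold change (y axis, ATRA over control) of each tested gene in the 6 pathway lists (x axis), uncorrected in grey and GC-corrected in orange, with filled points for an adjusted p under 0.05 and lines at the list medians. Filled points appear only in the corrected columns, 23 in all, and the MYC target genes lie mostly below 0 there, with a median of −0.37.

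Ccnd2 was the member with the smallest p, and the genes nearest to it in pattern over the 4 libraries were Plce1, Gfra1 and Mest, by the Euclidean distance of centred log2 CPM (0.0759, 0.155 and 0.158). Plce1, which encodes a phospholipase C, had 6.14 and 6.73 CPM in the controls and 34.6 and 37.2 with ATRA. Gfra1, a co-receptor for the growth factor GDNF, had 7.40 and 7.75 against 34.9 and 38.9. The imprinted gene Mest had 99.8 and 105 against 576 and 638. Their log2 fold changes were 2.48, 2.28 and 2.57, and Ccnd2's was 2.42. Because the genes were picked by closeness over the same 4 libraries, similar fold changes follow from the choice.

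The cells carried the markers of their label. Summed over 8 pluripotent stem cell markers, levels were 3619 and 3621 CPM in the controls and 1649 and 1302 with ATRA, with all 8 genes detected in every library. Pou5f1 had 1279 and 1251 CPM against 307 and 106, Nanog 263 and 299 against 183 and 170, and Sox2 229 and 217 against 136 and 273. With GC correction Pou5f1 had 705 and 782 CPM against 341 and 275 (2.41-fold lower, where the uncorrected fold was 6.12), and Nanog 317 and 353 against 177 and 123. The corrected sum of the 8 genes was 3135, 3249, 1656 and 1367 CPM. The summed level of 8 extraembryonic endoderm markers was 25.5 and 25.9 CPM in the controls and 52.9 and 79.9 with ATRA, with Ttr at 0 in all libraries. Dab2 held most of that sum, at 21.7 and 22.3 CPM in the controls and 42.3 and 66.4 with ATRA. The 5 tested genes of the list summed to 28.6, 28.9, 51.6 and 75.1 corrected CPM. The 8 neural markers summed to 401, 340, 315 and 429 CPM, and the 7 tested ones to 263, 240, 329 and 810 CPM after GC correction, when both ATRA libraries were higher. Within this list, in genes picked after their values were seen, the neural progenitor gene Sox1 rose 17.2-fold uncorrected (adjusted p = 0.0196, edgeR) and 51.7-fold corrected. Its corrected ATRA replicates lay far apart, at 26.0 and 75.4 CPM, against 0.927 and 1.00 in the controls. Dcx, a gene of young neurons, rose 12.5-fold (adjusted p = 0.0472) and 6.45-fold, and its uncorrected call was lost without control replicate 1 (adjusted p = 0.117). Both corrected calls were lost without either control library. Of the 7 tested neural markers, 2 rose and 1 fell uncorrected, and 4 rose and 1 fell corrected. Of all genes, 1.13% were called uncorrected and 16.2% corrected. The neural marker that fell was Tubb3, 6.97-fold lower uncorrected (adjusted p = 0.0498, edgeR) and 2.49-fold lower corrected (adjusted p = 0.0105). Nes, which holds most of the neural sum, had 161 and 143 corrected CPM against 226 and 622. The 8 fibroblast and mesenchyme markers summed to 217, 156, 110 and 111 CPM, and the 7 tested ones to 124, 103, 118 and 218 after correction. Calls were not limited to the neural list. After correction, 6 of the 8 pluripotent stem cell markers fell and 0 rose. Of the 5 tested endoderm markers 4 rose, and of the 7 tested fibroblast and mesenchyme markers 2 rose, with 0 falling in either list. Uncorrected, 3 pluripotent markers fell, and 0 endoderm or fibroblast and mesenchyme markers were called. Whether the shift in these marker levels had a part in the changes of Ccnd2, Ccnd1 and Mycn was not tested.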

How the data were processed

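RNA was measured by sequencing in 4 libraries, grouped by their titles. ATRA is micromolar in the titles but millimolar in a treatment label, and the title was taken. The authors deposited raw read counts, 1 whole number per gene symbol. TopHat2 2.0.7, Cufflinks 2.0.2, HTSeq 0.6.0, Cuffdiff 2.0.2 and mm10 are named, per the submitters' processing notes, with no role. Which annotation and strand option were used is not given in the sources used here. Summary lines, among them reads in no annotated gene (63.4% to 66.2%), entered neither library sizes nor tests.

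The groups were compared in R 4.3.3 by edgeR 4.0.16, with filterByExpr on the groups, TMM, a robust quasi-likelihood fit without covariates, and Benjamini-Hochberg adjustment over all tested genes with a threshold of 0.05. SE is the absolute log2 fold change over the square root of F. For GC correction, each library's deviations in log2 CPM (prior count 2) were fitted against transcript GC content by robust regression on a natural spline with 5 degrees of freedom (MASS 7.3.60.0.1), and the fit entered as offsets. Symbols were matched to GENCODE M21 (21785 directly, 1277 by an older symbol, 358 not), and GC values covered 99.2% of tested genes. The chi-square per degree of freedom between replicates was 9.65 for the controls and 76.9 for ATRA, so none were merged.

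The alternatives were DESeq2 1.42.0, its size factors, no count filter, a replicate block, each library left out, and, added after seeing the data, edgeR's earlier quasi-likelihood method. The code was tested on simulated data. The 10 members and all lists were chosen with earlier results of these data known. Beside the members, up to 2 called genes per direction were named from each list by smallest p, or, with none called before GC correction, the gene of highest mean CPM, and the 3 genes nearest in pattern to the member with the smallest p.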

Additional observations from a re-analysis of the deposited data

How the results depend on the processing

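Without GC correction 161 genes were called, and 2 of the 9 G1 control genes. The calls of Ccnd2 and Mycn were also made with DESeq2's size factors, no count filter and edgeR's earlier quasi-likelihood method. All genes called numbered 603 with DESeq2's size factors, 4231 with DESeq2, 86 with the earlier method, 2308 with GC correction and 2377 with GC correction and the earlier method. DESeq2 called 6 G1 control genes, against 28.5% of all genes. Of the 90 tested pathway list genes, the main fit without GC correction called 0. The calls were 5 with DESeq2's size factors, against 4.23% of all genes, and 29 with DESeq2, against 28.5%. There were 23 with GC correction, against 16.2%, and 23 with GC correction and the earlier method, against 16.7%.

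The replicate numbers are not known to pair the libraries. The deviations of same-numbered libraries correlated at 0.18, and at −0.03 after GC correction. With a replicate block 4401 genes (30.9%) were called, 4 of them G1 control genes and 31 in the pathway lists. With the block and GC correction the numbers were 2644 (18.5%), 3 and 26.

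Leaving out each library, with and without GC correction, gave 24 to 10289 called genes, 0 to 9 G1 control genes and 0 to 76 pathway genes. The fewest came without a control library and the most of each without ATRA replicate 1, uncorrected. In that fit 10 G1 control genes and 14917 genes in all were tested, and most of all genes were called as well. Whether either list exceeded the share of all genes there was not tested. In these fits a lone library is assumed to vary like the other group, and why the counts differ was not tested.

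Directions turned as follows, as log2 fold changes under GC correction, under the block with it, and under the earlier method with it. Ccnd3 had 0.29 in all 3, Cdkn1b −0.37 in all 3, and Cdkn2d 0.63, 0.62 and 0.63. Ddb1 had 0.16 in all 3, Mga −0.27, Ncl −0.26 and Skp2 −0.44. Phlda3 had 1.17, 1.19 and 1.18, and Cdkn2a 0.33, 0.33 and 0.32. With a library left out, with or without the correction, the ranges were −2.02 to 0.32 for Ccnd3, −0.42 to 0.76 for Cdkn1b, −1.25 to 0.72 for Cdkn2d and −1.13 to 0.12 for Myc. They were −0.49 to 0.21 for Ddb1, −0.32 to 0.93 for Mga, −0.30 to 0.90 for Ncl, −0.49 to 0.36 for Skp2, −1.71 to 1.36 for Phlda3 and −2.07 to 0.69 for Cdkn2a. For the markers Sox2 and Nes they were −0.71 to 0.44 and −0.076 to 2.04.

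The call of Dcx was lost with the earlier method (adjusted p = 0.0601).

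The mean Ccnd2 share of the D-type cyclins was 5.84% in the controls and 41.4% with ATRA. It was 11.6% and 59.0% without length scaling and 8.34% and 32.3% on GC-corrected levels. The mean Mycn share of Myc and Mycn was 73.1% and 45.0%, against 75.7% and 48.3% without length scaling and 70.7% and 47.9% on GC-corrected levels. Depth limits Cdkn2c, which had 4 to 16 counts per library.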

Other observations

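The other CDK inhibitor genes, singled out after their values were seen, did not pass in either fit. Cdkn1c, which encodes the CIP/KIP inhibitor p57 and is imprinted, had 38.8 and 30.6 CPM in the controls and 38.1 and 64.4 with ATRA, and a log2 fold change of 0.56 (adjusted p = 0.257, edgeR). After GC correction it had 18.9, 18.03, 44.7 and 189 CPM, and the log2 fold change was 2.65 (SE 0.66, adjusted p = 0.0531), with the ATRA replicates far apart. The INK4 gene Cdkn2b (p15) had 5.02 and 4.90 CPM against 5.94 and 9.08, with log2 fold changes of 0.59 and, corrected, 1.96 (adjusted p = 0.0678). Cdkn2a, which encodes p16 and ARF, had 7.12 and 3.65 CPM against 2.54 and 1.34, with log2 fold changes of −1.44 and 0.33.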
